A study of Mus musculus with 2 samples.

Results

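The genes described here encode cytokines, chemokines and their receptors, chosen by symbol: interleukins and interleukin receptors, CXC and CC chemokines and their receptors, the numbered ligands and receptors of the tumour necrosis factor (TNF) superfamily, and Tnf, Lif, Lifr, Osmr and Il6st, with Il17rd left out. Of 18193 genes named by a probe set of their own on the array, 149 are of this kind, read by 238 probe sets. The samples are epithelium of ICR mouse fetal lung, isolated at embryonic day 11. It was grown for 4 days inside Matrigel, an extracellular matrix gel, with FGF10 and CHIR99021, which blocks glycogen synthase kinase and so keeps beta-catenin from being degraded. It was then broken up, embedded again and grown for 2 days with FGF10, either with CHIR99021 (CHIR+) or without it (CHIR-). Both cultures had therefore been exposed to the inhibitor, and the question is what its continued presence does. Each condition was measured on 1 Affymetrix array. No spread between cultures can be given, no difference was tested, and how many lungs were pooled is not given in the sources used here.

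Cytokines are small secreted or membrane-bound proteins that signal between cells, and chemokines are those that direct cell movement. Interleukins of the IL-1 family and TNF ligands act through receptors that activate NF-kB, whereas the interleukins that bind class I and class II receptors act through JAK kinases and STAT factors. Lung epithelium makes some of these ligands, among them Il33, an alarm signal stored in the nucleus, and it carries receptors for many more. Chemokine receptors such as Cxcr4 are coupled to G proteins.

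Signals are MAS5 values on a linear scale as the authors deposited them. A background floor was placed at the 95th percentile of 80 probe sets for olfactory and vomeronasal receptors, genes with no known role in this tissue, at 12.7 for CHIR+ and 19.2 for CHIR-. A gene is called measured when 1 array or both read above the floor, and higher or lower when the arrays differed by at least 2-fold with signals below the floor raised to it. Where 1 array lay below the floor, the fold is a bound, written "at least". Log2 ratios are CHIR+ over CHIR-.

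The labels were checked on targets of beta-catenin: all 7 of those listed were at least 2-fold higher in CHIR+, for instance Axin2, a feedback inhibitor, with signals of 267 in CHIR+ and 58.2 in CHIR-. The epithelial markers Epcam (3743 in CHIR+, 3846 in CHIR-) and Sftpc (8500 and 8808, in the same order) were present on both arrays. Of the 10 epithelial markers listed, 9 had a log2 ratio below 0 and 3 were lower, against 77.4% and 18.4% of all measured genes. Krt8 and Krt18, keratins of simple epithelium, had log2 ratios of -1.29 and -1.25, and Nkx2-1, the transcription factor that marks lung epithelium, had 52.0 in CHIR- and was below the floor in CHIR+ (5.84), at least 4.09-fold lower. Among 17 leukocyte markers 5 were above the floor on each array, with summed signals over the whole list of 178 in CHIR+ and 420.5 in CHIR-. Ptprc, which marks all leukocytes, Cd3e and Cd79a, which mark T and B cells, and C1qa, of macrophages, were below the floor on both. So were Itgam, Tyrobp, Fcer1g and C1qb, which also mark myeloid cells. The 5 above the floor on each array all had lower signals in CHIR+, as did 76.4% of all genes above both floors. Of the 5, 2 were lower by at least 2-fold (background 17.3%). Cd14 had 37.1 in CHIR+ and 177 in CHIR-, 4.77-fold lower, and Lyz2 had 35.0 in CHIR+ and 74.9 in CHIR-, 2.14-fold lower. Adgre1 (19.8 in CHIR+, 33.6 in CHIR-), Cd68 (19.4 and 28.1) and Laptm5 (31.8 and 34.4) did not reach 2-fold. Of 14 mesenchymal markers 6 were measured, with summed signals of 424 in CHIR+ and 501 in CHIR-, and of 8 endothelial markers 2, with sums of 52.8 and 108.9 in the same order. The ratio of 3' to 5' signal was higher in CHIR+ for beta-actin (3.18 in CHIR+, 1.29 in CHIR-) and for Gapdh (1.62 and 0.737), and the median log2 ratio of all measured genes was -0.42. The part of RNA quality, and of other cells, in the ratios below was not tested.

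Fewer cytokine and receptor genes were measured than of genes at large, and those measured were lower in CHIR+ more often. Of the 149 genes 71 (47.7%) were measured, against 71.0% of all genes. Among them 43 were above the floor on both arrays, 8 only in CHIR+ and 20 only in CHIR-. Lower in CHIR+ were 27 of the 71 (38%), where the background over all 12917 measured genes was 18.4%. Higher were 2 of the 71 (2.82%), against a background of 1.9%. For 11 of the 27 lower genes the fold is a bound. The median log2 ratio was -0.75 over the 71 genes, and -0.51 over the 43 above both floors, against -0.40 for all genes above both floors. Of those 43, 16 were lower (37.2%, background 17.3%) and 2 higher (background 1.75%).

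A gene above the floor on 1 array only could be called only towards that array, and 28 of the 71 were of that kind, 20 of them in CHIR-. The CHIR- floor is 1.51-fold the CHIR+ floor, so a gene above the floor in CHIR- only was that much lower from the start. A gene above it in CHIR+ only had that much to make up before it could read higher. The shares over the 71 are therefore a description of what was measured and not of all 149 genes. RNA from the whole culture was measured, so fewer cells of a type and less RNA per cell cannot be told apart.

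**Figure D1:**
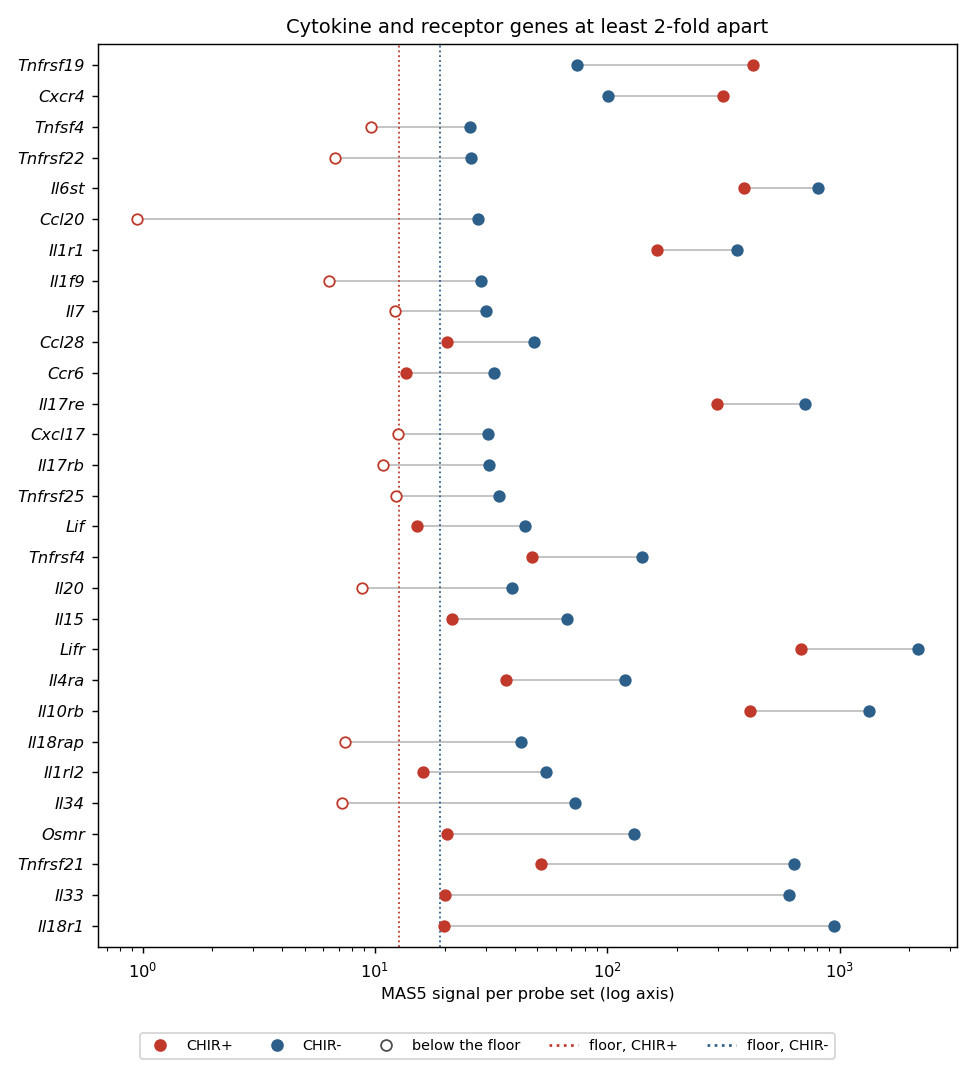
MAS5 signals (log axis) of the 29 cytokine, chemokine and receptor genes that differed at least 2-fold, in CHIR+ (red) and CHIR- (blue), ordered by log2 ratio, with the floors as dotted lines and open points below the floor. Tnfrsf19 and Cxcr4 are higher in CHIR+, and 27 genes lie to the left in CHIR+, 11 of them below its floor.

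The receptors that were higher with CHIR99021 on the authors' scale were Tnfrsf19 and Cxcr4. Median centring, quantile normalization and loess each added Cxcr3, Il17d and Tnfrsf1b, described below, and median centring also Cxcl15. Tnfrsf19, also called Troy, is an orphan member of the TNF receptor superfamily that marks stem cells of the intestinal crypt, where it is a target of Wnt signalling. It had a signal of 424 in CHIR+ and 74.4 in CHIR-, 5.70-fold higher. A second probe set went the same way, with 84.2 in CHIR+ and 20.8 in CHIR-, a log2 ratio of 2.02, and its remaining probe set was below the floor on both arrays. Cxcr4, the receptor for Cxcl12, had 315 in CHIR+ and 100.4 in CHIR- on its only probe set, 3.14-fold higher. Both stayed past 2-fold under 4 other scalings of the arrays, with log2 ratios of 2.66 to 3.07 for Tnfrsf19 and 1.80 to 2.24 for Cxcr4. The ligand Cxcl12 was below the floor on both arrays by each of its 3 probe sets, the one that represents it reading 7.52 in CHIR+ and 4.23 in CHIR-.

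The promoter windows of these 2 genes are shown because they are the members that were higher under the authors' scale and each of the 4 others, and are searched for the binding motif of the TCF/LEF partners of beta-catenin, CTTTGA on either strand. Windows are from RefSeq (GRCm38.p6), 250 bases before and 50 after a transcription start, written 5' to 3' along the gene, with motif matches in capitals. Tnfrsf19 has 2 tabulated starts, on the minus strand of chromosome 14 at chr14:61046806-61047105 and chr14:61037938-61038237. Cxcr4 has 1, on the minus strand at chr1:128592250-128592549.
Tnfrsf19, first start: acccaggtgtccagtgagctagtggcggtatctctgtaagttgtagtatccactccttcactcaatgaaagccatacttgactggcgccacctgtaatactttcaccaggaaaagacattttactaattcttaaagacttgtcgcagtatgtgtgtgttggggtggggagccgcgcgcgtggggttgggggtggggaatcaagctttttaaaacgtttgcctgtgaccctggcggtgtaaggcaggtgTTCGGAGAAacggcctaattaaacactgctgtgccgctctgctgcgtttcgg
Tnfrsf19, second start: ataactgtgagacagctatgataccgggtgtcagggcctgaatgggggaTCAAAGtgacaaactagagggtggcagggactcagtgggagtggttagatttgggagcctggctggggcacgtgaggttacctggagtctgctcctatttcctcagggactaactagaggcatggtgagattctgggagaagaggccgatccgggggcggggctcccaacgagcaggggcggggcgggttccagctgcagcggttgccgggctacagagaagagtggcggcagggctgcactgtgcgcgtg
Cxcr4: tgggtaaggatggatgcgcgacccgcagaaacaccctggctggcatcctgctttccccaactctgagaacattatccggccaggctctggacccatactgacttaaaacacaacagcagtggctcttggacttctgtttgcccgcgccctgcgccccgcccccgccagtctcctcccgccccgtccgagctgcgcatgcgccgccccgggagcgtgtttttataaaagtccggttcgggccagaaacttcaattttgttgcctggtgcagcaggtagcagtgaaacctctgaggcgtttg
The second Tnfrsf19 window holds 1 match to the TCF/LEF motif, read as TCAAAG along the gene, 201 bases before the start. The first window holds none but has 1 match to the STAT motif TTCNNNGAA, beginning 2 bases before the start. The Cxcr4 window holds neither. Over the first tabulated window of 27025 genes the TCF/LEF motif occurs in 16.2%, and over those of 114 members with a window in 15.8%, so 1 match in a window is common.

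Il33 and Il18r1 had the lowest log2 ratios of all members. Il33, a cytokine of the IL-1 family stored in epithelial nuclei, had 20.01 in CHIR+ and 609 in CHIR-, 30.4-fold lower. Il18r1, the ligand-binding chain of the IL-18 receptor, had 19.9 in CHIR+ and 946 in CHIR-, 47.5-fold lower. In both cases CHIR+ was just above its floor of 12.7. Each is read by 1 probe set, so no second probe set bears on them. Under the 4 other scalings the log2 ratios ran from -4.78 to -4.35 for Il33 and from -5.42 to -5.01 for Il18r1.

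The first promoter window of each is printed to set these genes beside the higher ones. For Il33 it lies on the plus strand at chr19:29924863-29925162, and for Il18r1 on the plus strand at chr1:40465302-40465601.
Il33: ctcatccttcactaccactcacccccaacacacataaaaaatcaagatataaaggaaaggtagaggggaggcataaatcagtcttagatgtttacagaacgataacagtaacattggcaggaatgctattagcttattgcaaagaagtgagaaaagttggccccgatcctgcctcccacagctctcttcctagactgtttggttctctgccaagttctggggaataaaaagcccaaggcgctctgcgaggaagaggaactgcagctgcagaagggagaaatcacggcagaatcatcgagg
Il18r1: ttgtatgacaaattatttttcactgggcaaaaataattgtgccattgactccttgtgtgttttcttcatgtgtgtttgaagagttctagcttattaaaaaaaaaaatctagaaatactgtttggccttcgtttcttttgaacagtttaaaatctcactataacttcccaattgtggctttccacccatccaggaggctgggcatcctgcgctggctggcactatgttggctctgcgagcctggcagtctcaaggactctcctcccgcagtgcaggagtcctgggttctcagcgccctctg
Neither window holds the TCF/LEF or STAT motif, the AP-1 motif TGANTCA or the NF-kB consensus, on either strand. The other Il33 window holds none of them either, while of the other 2 Il18r1 windows 1 holds 2 STAT matches. Among all genes' first windows the STAT motif occurs in 8.47%, AP-1 in 7.93% and NF-kB in 8.18%, and among the 114 members in 14.0%, 21.1% and 14.0%. A match may overlap a match of another motif, and none of these letters shows binding.

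Of the other IL-1 family cytokines none reached 2-fold except Il1f9. Il1f9, now called IL-36 gamma, had 28.5 in CHIR- and was below the floor in CHIR+, at least 2.24-fold lower. Il18, the ligand of the Il18r1 receptor, had 20.3 in CHIR+ and 35.4 in CHIR-. Il1b, a central inflammatory cytokine, had 17.6 in CHIR+ and 25.0 in CHIR-. Il1f10 (29.2 in CHIR+, 56.6 in CHIR-) and Il1f6 (15 and 29.3 in the same order) lay just short of 2-fold. Il1a and the receptor antagonist Il1rn were below the floor on both arrays. Counting Il33, 2 of 8 measured cytokines of the family were lower (25.0%), near the background of 18.4%.

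Receptors of the IL-1 family were lower in 4 of 6 measured cases (66.7%, background 18.4%). Il1r1, the signalling receptor for IL-1, had 164 in CHIR+ and 363 in CHIR-, 2.21-fold lower. Il1rl2, the receptor for IL-36, had 16.2 in CHIR+ and 54.7 in CHIR-, 3.38-fold lower. Il18rap, the second chain of the IL-18 receptor, had 42.4 in CHIR- and was below the floor in CHIR+, at least 3.33-fold lower. Both chains for IL-18 were thus lower in CHIR+, Il18rap by a bound only. Il1rap, the accessory chain shared by IL-1, IL-33 and IL-36 receptors, had 235 in CHIR+ and 241 in CHIR-, close to equal, with log2 ratios of -0.58 and -0.70 on its dimmer probe sets. Il18bp, a secreted inhibitor of IL-18, had 20.6 in CHIR- and lay below the floor in CHIR+. The call on Il1r1 was lost under all 4 other scalings (-0.99 to -0.58), while those on Il1rl2 and Il18rap held in each. For all 3 of these genes a second probe set was below the floor on both arrays, so each call rests on 1 probe set.

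The 4 lower receptor genes are neighbours on the chromosome. In the RefSeq gene order of GRCm38.p6, Il1r2, Il1r1, Il1rl2, Il18r1 and Il18rap form a run on chromosome 1 in which members lie at most 3 coding genes apart. All 4 measured ones were lower, with log2 ratios from -5.57 to -1.14, and Il1r2, a decoy receptor, was below the floor. Members lie in 23 such runs. In the IL-1 family ligand run on chromosome 2 only Il1f9 of 5 measured genes was lower, and in the chemokine runs on chromosomes 5 and 11 none of the 5 measured genes was lower. With a background of 18.4%, counts this small do not stand apart from genes at large. The runs named here were picked after their values were seen. Osmr and Lifr, described next, are neighbours on chromosome 15, and both were lower.

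The receptor chains that signal for LIF and oncostatin M were lower together, as was Lif itself. Lif, a cytokine of the IL-6 family, had 15.1 in CHIR+ and 44.2 in CHIR-, 2.92-fold lower. Lifr, its receptor, had 686 in CHIR+ and 2185 in CHIR-, 3.18-fold lower. A second probe set for Lifr had 45.7 in CHIR+ and 327 in CHIR-, 7.15-fold lower.
Osmr, the oncostatin M receptor, had 20.4 in CHIR+ and 131 in CHIR-, 6.41-fold lower. Il6st, the shared signalling chain gp130, had 387 in CHIR+ and 804 in CHIR-, 2.08-fold lower, and 118 in CHIR+ and 380 in CHIR- on another probe set, 3.21-fold lower. Under the 4 other scalings Lifr (-1.52 to -1.19) and Osmr (-2.53 to -2.01) stayed past 2-fold in each, Lif in 2 and Il6st in none (-0.91 to -0.58).
Il6ra, the receptor chain for IL-6, had 23.7 in CHIR+ and 21.1 in CHIR-, near both floors. Il6, Il11 and Il31, other ligands of gp130-type receptors, and the receptors Il27ra and Il31ra were below the floor on both arrays.

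**Figure D2:**
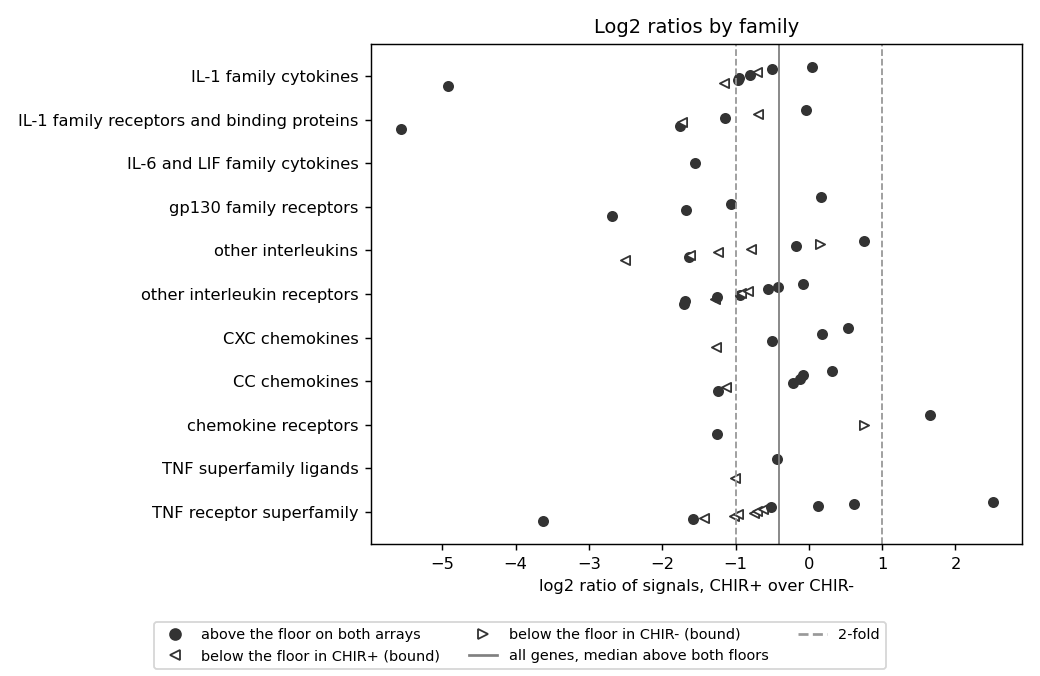
Log2 ratio of signals, CHIR+ over CHIR-, for each measured gene by family, with filled points above the floor on both arrays, open triangles for bounds, the median of all genes above both floors (-0.40) as a solid line and 2-fold as dashed lines. Genes above the floor in CHIR+ only, with a signal there under the CHIR- floor, have no direction and are not drawn. IL-1 family receptors (median -1.44) and gp130 family receptors (median -1.36) lie mostly past 2-fold lower, while most chemokines lie within 2-fold.

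Among the other interleukins 4 of 8 measured genes were lower (50%, background 18.4%) and none higher (background 1.9%), and 3 of the 4, Il34, Il20 and Il7, were above the floor in CHIR- only. Il15, a growth factor for natural killer and memory T cells, had 21.6 in CHIR+ and 67.1 in CHIR-, 3.11-fold lower. Il34, a ligand of the Csf1 receptor on macrophages, had 72.6 in CHIR- and was below the floor in CHIR+, at least 5.71-fold lower. Il20, of the IL-10 family, had 39.1 in CHIR- and Il7, a lymphocyte growth factor, 30.0, and both were below the floor in CHIR+, at least 3.07-fold and 2.36-fold lower. Il17d, a member of the IL-17 family, went the other way without reaching 2-fold, with 98.1 in CHIR+ and 58.3 in CHIR-. Its log2 ratio of 0.75 became 1.23 after median centring, 1.32 after loess and 1.42 after quantile normalization. These values come from an _x_at probe set. The other Il17d probe set was below the floor on both arrays (7.64 in CHIR+, 1.13 in CHIR-). Without _x_at and _s_at probe sets Il17d dropped out. Il4, Il5 and Il13, the type 2 cytokines of T cells, Il10, Il2 and Il12b were among the 13 below the floor on both arrays.

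Receptor chains for interleukins outside the IL-1 and gp130 groups were lower in 4 of 12 measured cases (33.3%, background 18.4%). Il10rb, a chain shared by IL-10, IL-22 and interferon lambda, had 410 in CHIR+ and 1333 in CHIR-, 3.25-fold lower. Its second probe set had 48.0 in CHIR- and was below the floor in CHIR+, at least 3.77-fold lower. Il4ra, the common chain for IL-4 and IL-13, had 36.8 in CHIR+ and 118.9 in CHIR-, 3.23-fold lower. Its other 2 probe sets, near the floor, had a log2 ratio of -0.69 and a bound of -0.71, so that the median over probe sets did not reach 2-fold. Il13ra1, which pairs with Il4ra, had 188 in CHIR+ and 277 in CHIR-, but probe sets for it disagreed in size, with 1 reading 20.2 in CHIR+ and 194 in CHIR-.
Of the IL-17 receptor chains, Il17re, the epithelial receptor for IL-17C, had 297 in CHIR+ and 711 in CHIR-, 2.40-fold lower, with other probe sets at log2 ratios of -1.66 and -0.64. Il17rc had 66.7 in CHIR+ and 128 in CHIR-, just short of 2-fold. Il17ra, the chain they share, had 62.6 in CHIR+ and 66.5 in CHIR-. Il17rb, the receptor for IL-25, had 31.0 in CHIR- and was below the floor in CHIR+, at least 2.44-fold lower. The calls on Il17re and Il17rb held under only 1 of the 4 other scalings, that on the hybridization controls.

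Chemokines were mostly within 2-fold or below the floor. Cxcl15, or lungkine, a neutrophil attractant made by mouse lung epithelium, had 1502 in CHIR+ and 1033 in CHIR-, and 453 in CHIR+ and 325 in CHIR- on its second probe set. Its log2 ratio of 0.54 reached 1.02 after median centring, but was 0.90 after quantile normalization, 0.83 after loess and 0.69 on the hybridization controls. Cxcl16, a membrane-anchored chemokine, had 79.8 in CHIR+ and 113 in CHIR-. Cxcl1, a neutrophil attractant, had 62.5 in CHIR+ and 55.4 in CHIR-, with probe sets of both signs.
Cxcl17, a mucosal chemokine, had 30.6 in CHIR- and was below the floor in CHIR+, at least 2.41-fold lower. Ccl28, a mucosal chemokine of epithelia, had 20.4 in CHIR+ and 48.3 in CHIR-, 2.36-fold lower. Ccl20, which attracts dendritic cells, had 27.8 in CHIR- and was below the floor in CHIR+, at least 2.19-fold lower, and its receptor Ccr6 had 13.6 in CHIR+ and 32.5 in CHIR-, 2.38-fold lower. These 4 lay close to the floor. Cxcl17, Ccl28 and Ccr6 held under 1 of the 4 other scalings and Ccl20 under none.
Ccl25 (36.8 in CHIR+, 39.0 in CHIR-), Ccl4 (33.0 and 36.0), Ccl8 (23.9 and 27.7) and Ccl27a (71.9 and 57.7) differed by less than 1.5-fold. Cxcr3, the receptor for interferon-induced chemokines, had 32.1 in CHIR+ and was below the floor in CHIR-, at least 1.68-fold higher. On the log2 scale this is 0.75, against 1.22 after median centring, 1.33 after loess and 1.43 after quantile normalization. Of 31 chemokines 20 were below the floor on both arrays, among them Ccl2, Ccl5, Cxcl2 and Cxcl10, and of 15 chemokine receptors 11 were.

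In the TNF superfamily 14 of 19 receptors (73.7%) and 2 of 8 ligands (25.0%) were measured, against 71.0% of all genes. Of the 14 receptors 4 were lower (28.6%, background 18.4%) and 1 was higher (7.14%, background 1.9%). Tnfrsf21, or death receptor 6, had 51.9 in CHIR+ and 640 in CHIR-, 12.3-fold lower. A second probe set had 13.7 in CHIR+ and 271 in CHIR-, a log2 ratio of -4.31. With Il33 and Il18r1, it was 1 of 3 members over 10-fold lower. Tnfrsf4, the T cell receptor OX40, had 47.4 in CHIR+ and 141 in CHIR-, 2.98-fold lower. Tnfrsf25, or death receptor 3, had 34.2 in CHIR- and Tnfrsf22, a decoy receptor for TRAIL in the mouse, 25.8, and both were below the floor in CHIR+, at least 2.68-fold and 2.03-fold lower. Another Tnfrsf22 probe set had 13.6 in CHIR+, above the floor, and 12.4 in CHIR-, below it. The call on Tnfrsf22 was lost as the median over probe sets (-0.76) and under all 4 other scalings (-0.87 to -0.34).
The receptors for TNF and TWEAK were within 2-fold on the authors' scale. Tnfrsf1a, the main TNF receptor of epithelia, had 390 in CHIR+ and 557 in CHIR-. Tnfrsf12a, the TWEAK receptor Fn14, had 558 in CHIR+ and 513 in CHIR-, and 495 and 539 on its second probe set, which differ in sign. Tnfrsf1b, the other TNF receptor, had 31.3 in CHIR+ and 20.4 in CHIR-, with a second probe set of opposite sign. Its log2 ratio of 0.62 passed 2-fold after median centring (1.10), loess (1.21) and quantile normalization (1.30), and was 0.77 on the hybridization controls and 0.04 as the median over probe sets.
Of the ligands, Tnfsf4, the partner of OX40, had 25.6 in CHIR- and was below the floor in CHIR+, at least 2.01-fold lower. Tnfsf9, a costimulatory ligand, had 114 in CHIR+ and 154 in CHIR-. Tnf, Tnfsf10, which encodes TRAIL, and Tnfsf11, which encodes RANKL, were below the floor on both arrays.

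Other measured members gave signals near the floors and did not reach 2-fold. Above the floor on both arrays were Il1f5, an antagonist of the IL-36 receptor (20.5 in CHIR+, 19.8 in CHIR-), Il16, a ligand of CD4 (21.6 and 24.4), Il3ra, the receptor chain for IL-3 (29.1 and 39.0), and Tnfsf13os, an antisense RNA taken in by its symbol (17.2 and 19.2). The antisense RNA Il1bos and the enzyme Il4i1, also taken in by symbol, were below the floor on both. Above the floor in CHIR- only were Il1f8, Il24, Il13ra2, Il7r, Tnfrsf11b, Tnfrsf13c, Tnfrsf17 and Tnfrsf18, with signals there between 19.7 and 24.9. Above it in CHIR+ only were Ccl7, Ccr7, Il15ra, Il17a, Il20rb, Tnfrsf10b and Tnfrsf11a, with signals there between 12.9 and 21.4. All but Il17a of these 7 read under the CHIR- floor of 19.2 in CHIR+, so no direction can be given for them.

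Probe sets of the same gene were compared with each other. In 15 members with 2 or more probe sets above both floors, the SD of log2 ratios within a gene was 0.71, against 0.56 over 5335 genes, and all probe sets had 1 sign in 12 of the 15. Il13ra1, with log2 ratios from -3.27 to -0.07, is 1 of the 15 and has the widest range. The SD without it was not computed, so the value may not describe the members in general. The SD measures differences between probes, not between cultures. Both measured probe sets of Tnfrsf19 and both of Tnfrsf21 lay past 2-fold. Il17re and Il4ra each had 1 above both floors that did not. Il4ra, Lifr and Osmr each had 1 above the floor in CHIR- only, whose bound falls short of 2-fold.

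**Figure D3:**
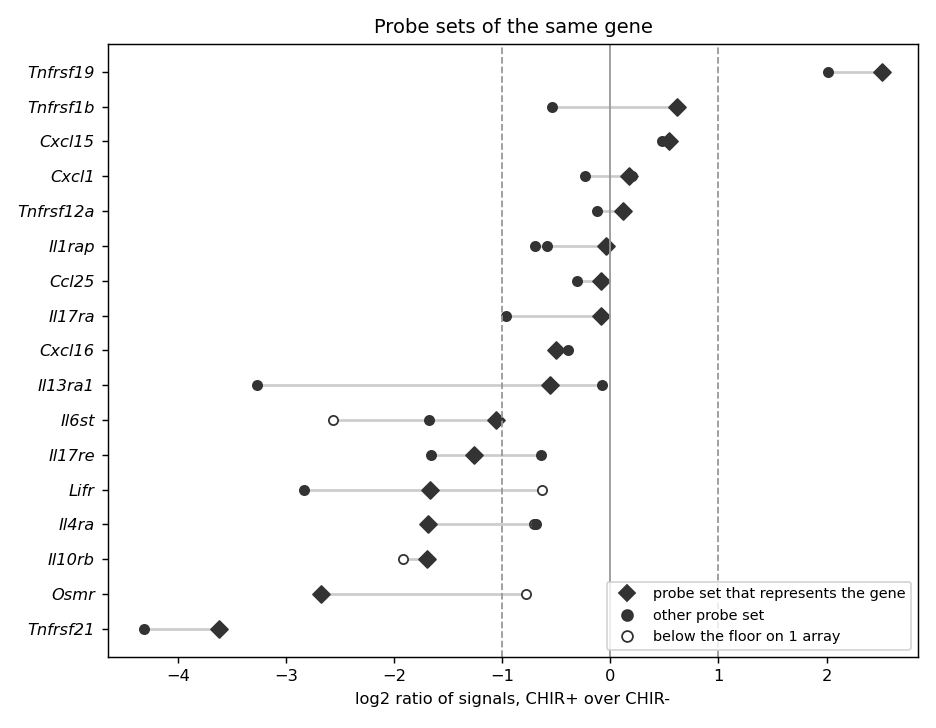
Log2 ratio of signals, CHIR+ over CHIR-, for each probe set of the 17 genes with 2 or more that could be placed, with the representing probe set as a diamond, open symbols where 1 array lay below the floor, and dashed lines at 2-fold. Il13ra1 spans from -3.27 to -0.07, and Tnfrsf21 lies past 2-fold by both of its probe sets.

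The calls depended on how the arrays were scaled, because most genes were dimmer in CHIR+. Of the 27 lower members 10 stayed at least 2-fold lower under all 4 other scalings: Il18r1, Il33, Tnfrsf21, Osmr, Il34, Il1rl2, Il18rap, Il10rb, Il4ra and Lifr. Of the members past 2-fold, 6.90% were higher as deposited, against 30.0% after median centring, 27.8% after loess, 33.3% after quantile normalization and 8.33% on the hybridization controls. For all genes these shares were 9.33%, 44.3%, 45.3%, 53.4% and 15.8% in the same order. The higher members were 6 of 71 after median centring (background 5.91%) and 5 after loess (background 6.03%). They were 5 after quantile normalization (background 7.38%) and 2 on the controls (background 2.63%). The lower members were 14 of 71 (19.7%) after median centring, with a background of 7.44%, 13 (18.3%) after loess, with 7.29%, 10 (14.1%) after quantile normalization, with 6.43%, and 22 (31.0%) on the controls, with 14%. Relative to the median gene 14 were lower (background 8.31%) and 5 higher (background 5.18%).

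The floor and the threshold moved the counts as well. Without a floor 35 of 71 members were lower (49.3%, background 20.6%) and 5 higher (background 3.71%). With the floor at the 99th percentile 18 of 53 were lower (17.7%) and 2 higher (1.77%). With an offset of 16 in place of the floor 17 of 71 were lower (23.9%, background 13.9%) and 2 higher (background 1.58%). These settings act on members near the floor, among them the 11 whose fold is a bound. At a 1.5-fold threshold 40 of 71 were lower (56.3%, background 38.7%) and 5 higher (background 5.05%). At 3-fold 12 of 71 were lower (16.9%, background 6.29%) and 2 higher (background 0.627%). Because the floors differ by 1.51-fold, every gene above the floor in CHIR- only counts as lower at 1.5-fold, 20 members among them. With the median over probe sets 26 of 73 were lower (35.6%, background 20.2%) and 2 higher (background 1.46%). Without _x_at and _s_at probe sets 25 of 68 were lower (36.8%, background 19.4%) and 2 higher (background 1.86%).

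**Figure D4:**
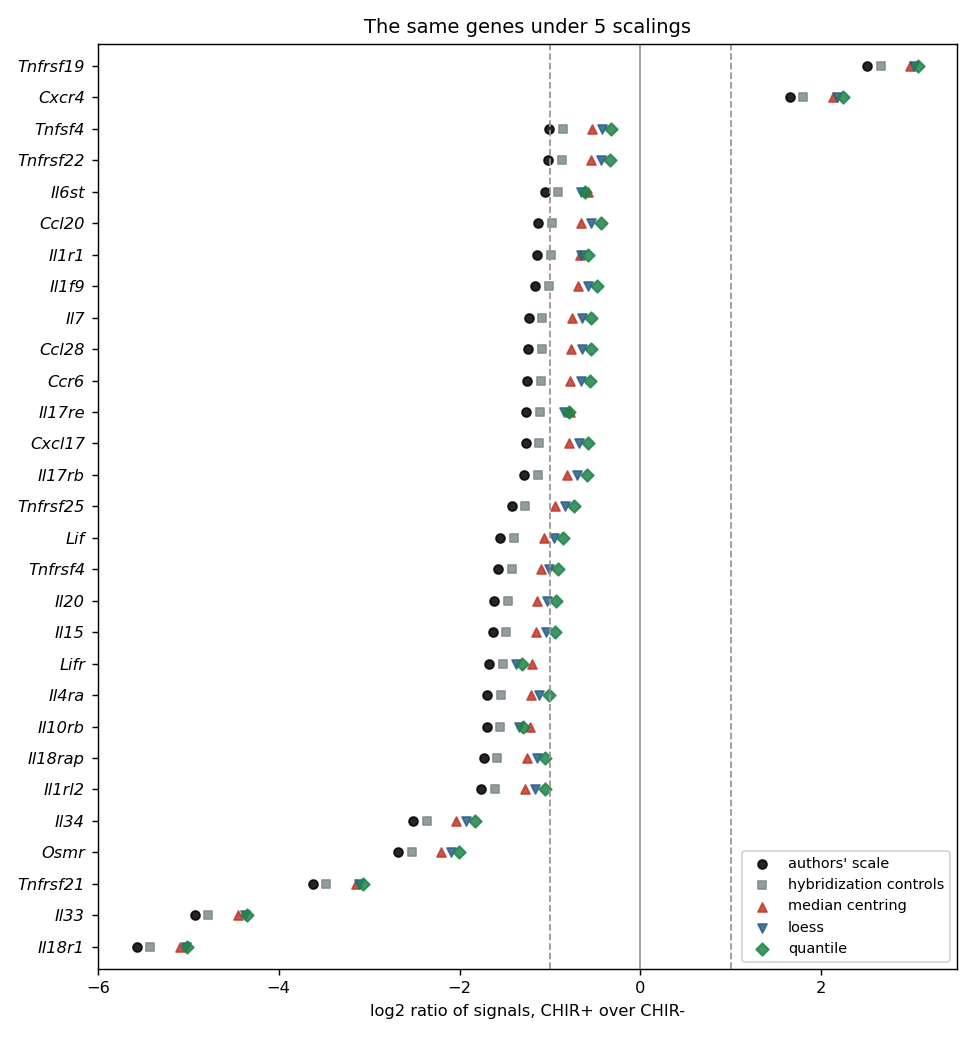
Log2 ratio of signals, CHIR+ over CHIR-, for the 29 genes past 2-fold on the authors' scale under that scale and 4 others, with dashed lines at 2-fold. Genes from Lifr down to Il18r1 keep all 5 points past 2-fold, while the 5 points of genes such as Il6st, Il1r1 and Ccl20 fall on both sides of the line.

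Among genes that carry signals from these receptors, the JAK and STAT list and the NF-kB list had similar medians. Their counts of lower genes are too small to stand apart from the background. None of these genes was higher, where the background of 1.9% gives few or none in lists of this size. These and the other gene lists were counted on the authors' scale only. Among JAK, STAT and SOCS genes and related phosphatases and inhibitors, 6 of 20 measured genes were lower (30.0%, background 18.4%). The median log2 ratio over the 19 above both floors was -0.69. Of the 6, Socs2 (-1.07), Stat2 (a bound of -1.11), Stat6 (-1.11) and Tyk2 (-1.15) were just past 2-fold. Stat3, the main factor activated by gp130 receptors, had 200 in CHIR+ and 564 in CHIR-, 2.82-fold lower. Ptpn6, a phosphatase that dampens cytokine receptors, had 62.5 in CHIR+ and 214 in CHIR-, 3.42-fold lower. Socs3, the feedback inhibitor that Stat3 induces, had 447 in CHIR+ and 581 in CHIR-.
Among IL-1, TNF and NF-kB signalling genes 6 of 30 were lower (20%), close to the background, with a median of -0.63 over 29 genes. Irak2, a kinase of the IL-1 receptor family pathway, had 62.1 in CHIR+ and 417 in CHIR-, 6.72-fold lower, and Ikbkg, the regulatory subunit of the IkB kinase complex, had 242 in CHIR+ and 954 in CHIR-, 3.95-fold lower. Nfkbia, the NF-kB inhibitor, had 1580 in CHIR+ and 1982 in CHIR-, and Rela, an NF-kB subunit, 549 and 489 in the same order.

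Acute-phase and inflammatory genes were lower in 7 of 13 measured cases (53.8%, background 18.4%) and higher in none (background 1.9%). Their median log2 ratio was -1.96 over the 8 above both floors. Icam1, an adhesion molecule for leukocytes, had 705 in CHIR+ and 3256 in CHIR-, 4.62-fold lower. Lbp, which binds bacterial lipopolysaccharide, had 23.9 in CHIR+ and 113 in CHIR-, 4.75-fold lower. Hp, haptoglobin, had 148.5 in CHIR- and was below the floor in CHIR+, at least 11.7-fold lower. Pim1, a kinase induced by STAT factors, had 23.98 in CHIR+ and 111 in CHIR-, 4.63-fold lower.
Cytokine genes whose symbols fall outside the naming rule were lower in 7 of 35 measured cases (20%), near the background, with a median of -0.39 over 30 genes. Ifngr2, a chain of the interferon gamma receptor, had 38.1 in CHIR+ and 204 in CHIR-, 5.35-fold lower, and Tslp, an epithelial cytokine that acts with Il33 on type 2 immune cells, had 39.1 in CHIR+ and 188 in CHIR-, 4.83-fold lower. Mif, a cytokine made by most cells, had 2599 in CHIR+ and 2514 in CHIR-.

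**Figure D5:**
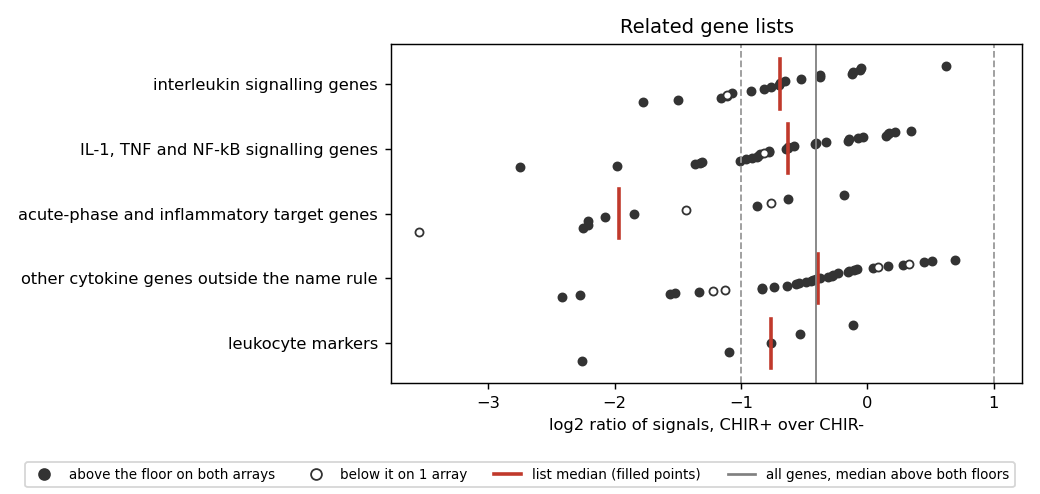
Log2 ratio of signals, CHIR+ over CHIR-, for measured genes of 4 related lists and of leukocyte markers, with open points where 1 array lay below the floor, red bars at the list median over filled points, a grey line at the median of all genes above both floors (-0.40) and dashed lines at 2-fold. Genes without a direction are not drawn. Acute-phase and inflammatory genes have the lowest median, -1.96, and no point reaches 2-fold higher (background 1.9%).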

How the data were processed

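RNA of cultured mouse fetal lung epithelium was measured on 2 arrays, 1 per condition. Per the labels' protocols, biotinylated cRNA was made from 100 ng of total RNA with a 3' in vitro transcription kit. The deposited values are signal intensity values per probe set on a linear scale, made by the authors with MAS5 per the submitters' processing notes. The version and scaling target are not given in the sources used here, and no detection call was used. Depth does not apply to arrays, and their number limits the precision.

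Of 45101 probe sets, 34945 name 1 gene by the platform annotation, 932 several, 9160 none here, and 64 are controls. All 238 member probe sets matched the RefSeq gene table (GRCm38.p6) by Entrez identifier, and 0 symbols differed. Where several probe sets name 1 gene only, the one whose log2 signal averaged highest stands for it. Named are the members past 2-fold, those above both floors and at 4 times the floor on 1 array, Il33, Il18r1 and Cxcr4, and up to 4 genes of each list with the largest change. Members and list genes named for other reasons (a partner or a role) were chosen after their values were seen. The members and lists were chosen with earlier results of these data known.

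Alternatives were median centring, quantile normalization, loess (span 0.4), scaling on 18 bacterial hybridization control probe sets, subtraction of the median gene (added after seeing the data), no floor, a floor at the 99th percentile, an offset of 16, the median over probe sets, leaving out _x_at and _s_at probe sets, and thresholds of 1.5-fold and 3-fold. The procedure was tested on simulated data, with changes planted in bright genes only and no difference in scale between arrays. That test does not cover calls on dim members. Python 3.11.15, numpy 2.4.6, pandas 2.3.3, statsmodels 0.14.6 and matplotlib 3.10.9 were used.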

Additional observations from a re-analysis of the deposited data

Results flagged for a closer look

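Probe sets that name several genes were left out of every count. Of the 10 that name a member, 5 were above the floor. The probe set shared by Ntan1 and Il2 had 673 in CHIR+ and 601 in CHIR-, while the probe set of Il2 alone was below the floor on both arrays. The probe set shared by Tnfrsf22 and Tnfrsf23 had 23.1 in CHIR+ and 56.8 in CHIR-, that shared by Tnfsfm13 and Tnfsf12 had 32.7 and 48.0, and those of the Ccl27 group had 105 and 81.6, and 48.2 and 63.6, each in that order.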

How the results depend on the processing

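The number of members at least 2-fold higher, 2 on the authors' scale, was 6 after median centring and 5 each after quantile normalization, after loess, relative to the median gene, without a floor and at a 1.5-fold threshold. The number lower, 27, was 14 after median centring, 10 after quantile normalization, 13 after loess, 14 relative to the median gene, 17 with an offset of 16 and 12 at a 3-fold threshold. The median log2 ratio of the members, -0.75, was -0.069 with quantile normalization and -0.16 with loess. Against the median gene, the members' median differed by -0.32 on the authors' scale, -0.21 with loess and -0.19 with quantile normalization, and among genes above both floors the medians were -0.51 for members and -0.40 for all.

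Of all genes, 245 were higher and 2380 lower on the authors' scale, against 763 and 961 after median centring, 953 and 831 with quantile normalization, 779 and 942 with loess, and 669 and 1074 relative to the median gene. Without a floor 479 were higher. At 1.5-fold the counts were 652 and 5005, and at 3-fold 81 and 812. Of 41 named members, 39 could be followed with the 99th percentile floor, where Tnfrsf22 and Tnfsf4 dropped out, 38 without _x_at and _s_at probe sets, where Il1rl2 was among those that dropped out, and 41 under each of the other 8 alternatives. Where they could be followed, none past 2-fold changed sign. No paired analysis was possible because each condition has 1 array. Dim signals limit most members: 28 of the 71 measured were above the floor on 1 array only, and for 78 no level was measured by the probe set used. In 2 of these, Tnfrsf9 and Tnfsf13b, another probe set was above the floor in CHIR-.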
